A study of Mus musculus with 26 samples.

Results

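The epididymis is a long duct in which sperm leaving the testis gain the ability to move and to fertilize. Its epithelium changes from segment to segment. The initial segment (IS) receives the fluid and sperm brought by the efferent ducts and depends on both androgens and factors from the testis, whereas the caput follows it and secretes many of the proteins that coat sperm. SUMOylation is the reversible attachment of a small protein to lysines of other proteins, among them transcription factors, whose activity on chromatin it tunes. Whether the ArKI knock-in, which removes SUMO attachment sites, changed the same genes in the same way in both segments was asked here through the interaction of segment and genotype, that is, the ArKI effect in the caput minus the ArKI effect in the IS.

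The members were all 20 epididymal samples among the 26 of the series, and every gene of their count table was considered. ArKI males carry a knock-in allele in which both SUMO acceptor lysines of 1 protein are replaced by arginine, and the allele is not limited to epithelial cells. WT males carry the unchanged gene. All mice were of a C57Bl/6N; 129 hybrid strain and 3 months old, and the 4 groups (IS of WT, IS of ArKI, caput of WT, caput of ArKI) hold 5 samples each. The IS and the caput were taken from 5 mice of each genotype, and equal replicate numbers are not stated to mark the same mouse. A point mutation leaves no mark in counts per gene, so the counts cannot check the genotype labels here.

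Total counts ranged from 4125768 to 11913469 per sample, so that 3 counts, taken as the smallest signal the depth can show, correspond to 0.252 to 0.727 counts per 1000000 counts (CPM). This limit covers counting error only. The shallowest sample was ArKI caput replicate 2. Correlations of log2(CPM + 0.5) between samples of a group ran from 0.977 to 0.993. The summed level of 18 genes known as IS markers was 35800 to 44100 CPM in the IS samples and 10000 to 14200 CPM in the caput samples, whereas that of 17 caput markers overlapped between the segments. Below, CPM values are scaled by the trimmed mean of M-values, and folds are log2 values of ArKI over WT from edgeR's quasi-likelihood fit with their standard error (SE). Adjusted p-values are those of Benjamini and Hochberg over all genes tested, and a gene is called below 0.01. As each value comes from bulk tissue, fewer cells of a type and less RNA per cell cannot be told apart, and with 5 samples per group the p-values measure the spread between these samples.

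Among 14329 genes tested, 1172 were called in the interaction, which is 8.18% of them. The ArKI effect was higher in the caput for 566 genes (3.95%) and lower for 606 (4.23%), and 444 differed by more than 2-fold. In the same fit, 2614 genes (18.2%) were changed by ArKI in the IS and 2757 (19.2%) in the caput. Most interaction genes were called in the caput alone, where 240 fell and 193 rose, or in the IS alone, where 225 fell and 232 rose. A further 87 changed in the same direction in both segments but to a different size, and 84 were called in neither segment by itself. Across all genes the median difference was near 0, at -0.0021 on the log2 scale.

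**Figure D1:**
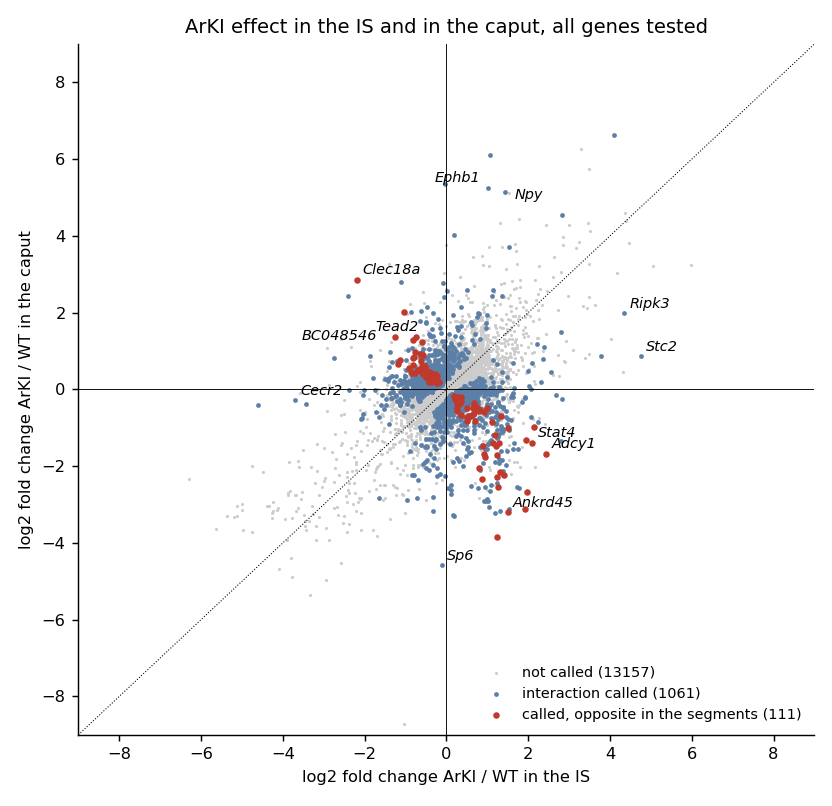
Log2 fold change of ArKI over WT in the IS (x axis) and in the caput (y axis) for each of the 14329 genes tested. Grey points were not called in the interaction, 1061 blue points were called, and 111 red points were called with opposite effects, and these lie at the upper left and the lower right, away from the dotted line of equal effect.

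In 111 genes, or 0.775% of those tested, ArKI had opposite effects in the segments, each called by itself. Of these, 58 rose in the IS and fell in the caput, with median log2 folds of 0.75 and -0.68, and 53 fell in the IS and rose in the caput, with medians of -0.52 and 0.43. In 37 of the 58 and 33 of the 53 the genotypes did not overlap in either segment. Over all genes tested, 116 (0.81%) had genotypes that did not overlap in both segments and lay in opposite order, against 853 (5.95%) in the same order.

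*Clec18a*, which encodes a C-type lectin, ranked highest among these genes by the smaller of its folds in the segments. In the IS it stood at 16.9, 18.4, 24.6, 14.4 and 16.5 CPM in WT and at 4.09, 2.95, 3.71, 4.78 and 4.49 CPM in ArKI. In the caput the order turned, with 1.33, 1.2, 1.64, 0.366 and 2.69 CPM in WT and 13.5, 9.22, 7.45, 11.7 and 10.7 CPM in ArKI. The genotypes did not overlap in either segment, and every ArKI caput sample lay above the ArKI IS and below the WT IS. The log2 fold was -2.18 ± 0.21 (SE) in the IS and 2.85 ± 0.26 in the caput, an interaction of 5.03 ± 0.33 (edgeR adjusted p = 5e-10). *Clec18a* was thus an IS gene in WT and a caput gene in ArKI, with a caput to IS difference of -3.26 and 1.29 on the log2(mean CPM + 0.5) scale.

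*BC048546* had the same pattern at a higher level. In the IS its samples read 88.7, 106, 119, 110 and 90.2 CPM in WT against 52.8, 35.3, 51.3, 36.4 and 39.3 CPM in ArKI. In the caput they read 76.1, 65.8, 84, 73.5 and 86.6 CPM in WT against 214, 254, 150, 205 and 182 CPM in ArKI. Neither pair of groups overlapped, and the interaction was 2.62 ± 0.20 (edgeR adjusted p = 1.7e-07).

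*Tead2*, a DNA-binding partner of the YAP and TAZ coactivators of the Hippo pathway, also changed sides. It measured 43, 39.1, 42.6, 37.5 and 36.7 CPM in the WT IS and 29, 25.6, 23, 26.5 and 27.5 CPM in the ArKI IS. The caput gave 20, 17.5, 20.1, 18.7 and 17.3 CPM in WT and 43.5, 50.5, 33.2, 50.5 and 44.3 CPM in ArKI. Again the genotypes did not overlap in either segment. The fall in the IS was smaller than the rise in the caput, with log2 folds of -0.59 ± 0.09 and 1.23 ± 0.09 and an interaction of 1.83 ± 0.13 (edgeR adjusted p = 5e-10).

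Other genes that fell in the IS and rose in the caput served varied functions. *Odz4*, now named *Tenm4*, a teneurin of cell adhesion, fell from 30.6 ± 6.52 to 15 ± 3.59 CPM (mean ± SD, n = 5) in the IS and rose from 1.26 ± 0.404 to 5.17 ± 1.01 CPM in the caput. *Uchl1*, a ubiquitin hydrolase best known in neurons, had log2 folds of -0.80 ± 0.11 in the IS and 0.84 ± 0.14 in the caput. *Kcne4*, an accessory subunit of potassium channels, had log2 folds of -0.82 and 0.64. *Bmp8a*, a BMP ligand, went from 10.4 to 6.08 CPM in the IS and from 1.01 to 1.9 CPM in the caput, and *Alox12e*, a lipoxygenase, from 13.4 to 6.16 and from 3.45 to 6.13 CPM. The interactions of these genes ran from 1.46 for *Kcne4* to 3.06 for *Odz4*. *Abi3* and *1190002H23Rik* (now *Rgcc*) completed the group chosen by the naming rule, with interactions of 1.65 and 2.11. In the caput the genotypes overlapped for *Bmp8a*, *Alox12e* and *Abi3*, and *Bmp8a* had only 5 to 16 counts per WT sample there.

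In the other direction *Adcy1*, a calcium-stimulated adenylyl cyclase, rose in the IS from 2.05, 1.49, 2.11, 1.41 and 2.61 CPM in WT to 6.6, 5.76, 18.4, 11.4 and 11.2 CPM in ArKI. In the caput it fell from 1.95, 0.982, 0.818, 1.34 and 1.76 CPM to 0.482, 0.461, 0.355, 0.427 and 0.412 CPM, and several of these ArKI values correspond to few counts. The genotypes were apart in both segments. The log2 folds were 2.44 ± 0.27 and -1.68 ± 0.45, and the interaction was -4.12 ± 0.52 (edgeR adjusted p = 4.3e-06).

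*Stat4*, a transcription factor that cytokine receptors activate, read 1.45, 0.801, 2.61, 2.69 and 1.77 CPM in the WT IS and 8.58, 8.29, 7.28, 7.34 and 7.92 CPM in the ArKI IS. Its caput values were 2.98, 2.84, 3.51, 2.93 and 4.57 CPM in WT and 0.362, 1.61, 1.42, 1.96 and 0.989 CPM in ArKI. All ArKI samples thus lay above WT in the IS and below WT in the caput. The interaction was -3.49 ± 0.38 (edgeR adjusted p = 4.7e-07).

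The remaining genes chosen by the naming rule in this direction were *Ankrd45*, *Lrrc34*, *Morn3*, *Tcte1*, *Wdr65* (now *Cfap57*) and *1700003M02Rik* (now *Cfap206*). The last 3 encode parts of the axoneme, the microtubule core of motile cilia and sperm tails. *Ankrd45* rose from 1.42 ± 0.318 to 4.07 ± 1.68 CPM in the IS and fell from 2.79 ± 0.868 to 0.253 ± 0.149 CPM in the caput. Its ArKI IS value was highest in replicate 3, at 7 CPM against 2.67 to 3.58 CPM in the others, and without that sample the interaction was -4.40 in place of -4.70. *Lrrc34* had log2 folds of 1.95 and -1.32. The other 4 genes had IS folds between 1.26 and 1.41 and caput folds between -1.40 and -2.54.

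**Figure D2:**
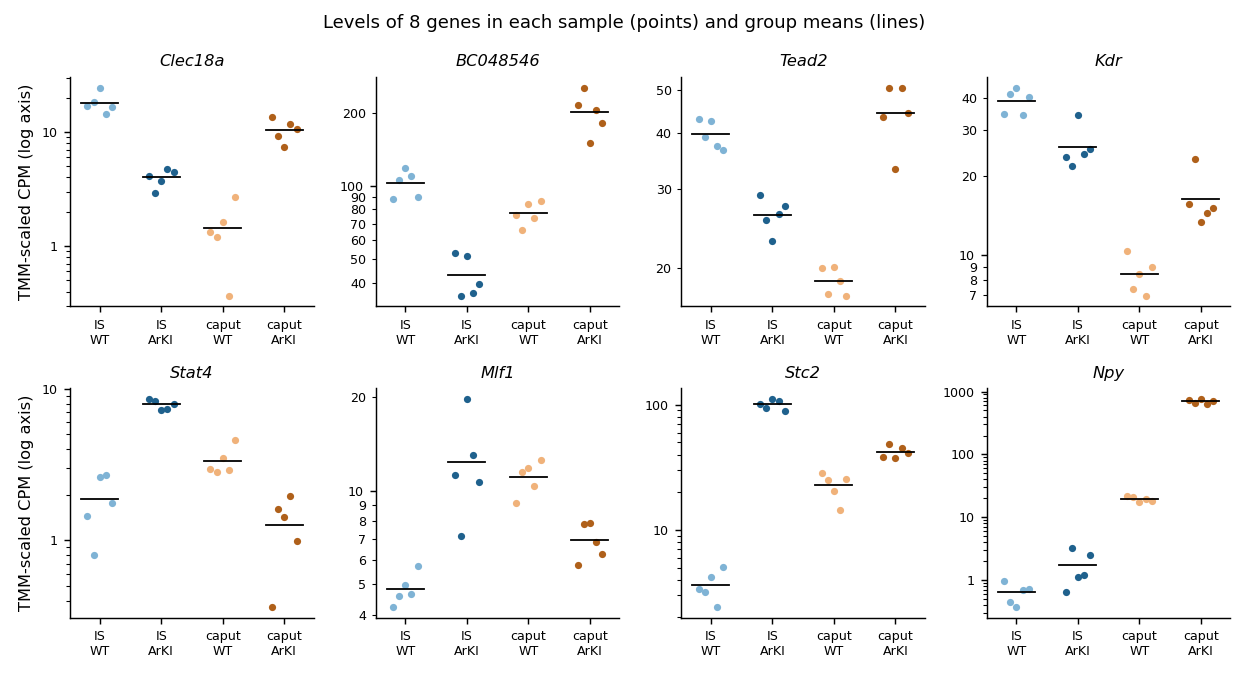
Scaled CPM on a log axis of 8 genes in the 5 samples of each group (points) with the group mean (line). In *Clec18a*, *BC048546*, *Tead2* and *Kdr* the ArKI group is lower than WT in the IS and higher in the caput, in *Stat4* and *Mlf1* the order is turned, and *Stc2* and *Npy* rose in both segments but by unequal amounts.

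Genes of multiciliated cells were mostly higher in the ArKI IS and, where called in the interaction, had lower effects in the caput. Multiciliated cells carry the motile cilia that stir fluid in the efferent ducts next to the IS, and transcription factors of the RFX family act at the promoters of many of their genes. The list holds 30 genes of axonemes, ciliary assembly and the multiciliated cell fate, all of which were tested, and *Tekt1* is also on the list of sperm genes. The sequences of 4 of its members just before the start of transcription are shown because most listed promoters of the group, though not all, hold the same motif. They are the 250 bases before the RefSeq start site on the gene's own strand in GRCm38.p6, with the RFX half-site GTTGCC, or its reverse complement GGCAAC, in capitals. These 4 were picked from the called members with a listed promoter, and the motif was chosen after the values were seen.
Mlf1: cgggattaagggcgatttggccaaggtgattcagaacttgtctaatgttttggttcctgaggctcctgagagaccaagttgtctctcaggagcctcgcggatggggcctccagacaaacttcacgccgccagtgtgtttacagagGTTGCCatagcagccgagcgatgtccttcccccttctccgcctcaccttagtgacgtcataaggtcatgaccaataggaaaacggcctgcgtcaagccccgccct
Tekt1: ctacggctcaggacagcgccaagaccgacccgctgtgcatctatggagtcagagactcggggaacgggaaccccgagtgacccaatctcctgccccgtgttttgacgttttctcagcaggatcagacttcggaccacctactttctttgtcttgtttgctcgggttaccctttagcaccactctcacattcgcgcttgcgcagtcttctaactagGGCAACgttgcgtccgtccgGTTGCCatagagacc
Lrrc23: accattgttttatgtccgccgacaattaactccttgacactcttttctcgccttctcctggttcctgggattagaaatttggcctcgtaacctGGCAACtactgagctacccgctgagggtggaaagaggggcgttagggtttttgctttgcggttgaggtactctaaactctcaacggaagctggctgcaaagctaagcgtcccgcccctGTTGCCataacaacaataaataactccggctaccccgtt
Ccdc39: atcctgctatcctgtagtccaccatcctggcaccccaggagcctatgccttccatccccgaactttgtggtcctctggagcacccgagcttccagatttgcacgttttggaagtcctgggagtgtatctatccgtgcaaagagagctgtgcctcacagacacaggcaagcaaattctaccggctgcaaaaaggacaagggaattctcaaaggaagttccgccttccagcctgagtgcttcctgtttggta
The windows lie at chr3:67373847-67374096 on the plus strand for *Mlf1*, chr11:72361883-72362132 on the minus strand for *Tekt1*, chr6:124779728-124779977 on the minus strand for *Lrrc23* and chr3:33844311-33844560 on the minus strand for *Ccdc39*. The start site is the one that RefSeq's promoter table lists first. In *Tekt1*, *Lrrc23* and *Ccdc39* it lies 560, 711 and 15 bases downstream of the outermost annotated start, so that the windows of *Tekt1* and *Lrrc23* lie inside the gene's span. The half-site starts at -105 in *Mlf1*, at -35 and -15 in *Tekt1* and at -157 and -39 in *Lrrc23*, counted from the start site, and *Ccdc39* has none in this window. In windows that reach 50 bases past the start, the half-site was found in 13 of 20 listed promoters of the group (65.0%), against 1313 of 10187 promoters of all tested genes (12.9%). It was found in 9 of 41 promoters (22.0%) of the genes that rose in the IS and fell in the caput, and in 3 of 35 (8.57%) of those that did the reverse. A match of letters is a description and not evidence of binding.

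Of the 30 multiciliated genes 12 were called in the interaction (40.0%, where 4.23% of all genes tested were called in this direction), and in each of them the ArKI effect was lower in the caput. In the IS 24 members rose and 0 fell (all genes, 9.44% and 8.8%), and in the caput 0 rose and 4 fell (all genes, 9.23% and 10%). The median log2 fold was 1.30 in the IS and -0.52 in the caput. The ArKI and WT samples did not overlap for 17 members that were higher in the ArKI IS and for 8 that were lower in the ArKI caput, where 19.5% (IS) and 19.9% (caput) of all genes showed non-overlap in either order.

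*Mlf1* was measured at 4.22 CPM or more in every sample. The WT IS gave 4.22, 4.57, 4.97, 4.67 and 5.74 CPM and the ArKI IS 11.2, 7.17, 19.7, 13 and 10.6 CPM. The WT caput gave 9.13, 11.5, 11.8, 10.4 and 12.5 CPM and the ArKI caput 5.79, 7.84, 7.89, 6.83 and 6.27 CPM. The genotypes did not overlap in either segment, and the interaction was -2.02 ± 0.26 (edgeR adjusted p = 5.5e-06). *Rsph1*, a radial spoke protein of the axoneme, rose from 13 ± 1.55 to 22.8 ± 6.65 CPM in the IS and fell from 14.2 ± 1.48 to 9.37 ± 1.53 CPM in the caput, with an interaction of -1.36 ± 0.21 (edgeR adjusted p = 7.3e-05). *Ccdc39*, which sets the spacing of structures along the axoneme, rose from 10 ± 2.17 to 29.2 ± 10.8 CPM in the IS, while its caput levels of 2.51 ± 0.401 and 1.18 ± 0.251 CPM did not pass the test (edgeR adjusted p = 0.029).

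*Tekt1*, a filament protein of axonemal microtubules, rose from 3.98 to 12.5 CPM in the IS, with 1.25 and 0.372 CPM in the caput and an interaction of -3.18 ± 0.62. *Lrrc23*, a radial spoke protein, rose from 5.05 to 12.4 CPM in the IS, with 0.871 and 0.305 CPM in the caput. Its interaction of -3.12 ± 0.71 was not called without WT caput replicate 5 or without ArKI caput replicate 5 (largest edgeR adjusted p = 0.0136). *Spag6*, a protein of the central pair of the axoneme, had log2 folds of 0.94 and -1.77, but it has a near-identical copy, so its counts are uncertain. At these caput levels, close to or below 1 CPM, the values rest on few counts. With at least 10 counts asked of every sample, 9 of the 30 members could be tested and 3 of these were called (33.3%, where 3.95% of all genes were called in this direction). By limma voom 7 of the 30 were called (23.3%, all genes 3.94%).

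Within the ArKI IS the group varied between samples. Its summed level was 284 to 360 CPM in the WT IS and 397 to 882 CPM in the ArKI IS, and the highest value was that of replicate 3. In the caput the sums were 214 to 235 CPM in WT and 181 to 223 CPM in ArKI, so that they overlapped although 4 members fell. Without ArKI IS replicate 3, 12 members were called as well, and *Mlf1* had an interaction of -1.78 and *Rsph1* of -1.17. Whether the number of multiciliated cells, or the share of efferent duct tissue in the dissected IS, moved with these values was not tested.

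The list of 49 tested sperm transcripts bears on the same genes, as sperm tails and cilia share axonemal parts. It summed to 211 to 354 CPM in the WT IS and 175 to 221 CPM in the ArKI IS, and to 692 to 952 CPM in the WT caput and 292 to 422 CPM in the ArKI caput. Its median log2 folds were -2.72 in the IS and -2.16 in the caput, and 25 members fell in the IS (13 by limma voom) and 38 in the caput. These shares exceed the 8.8% and 10% of all genes that fell in the IS and the caput. With at least 10 counts asked of every sample, 6 members could be tested and 2 fell in each segment. Their median log2 folds were 0.009 in the IS and -0.30 in the caput. The values of the whole list thus rest mostly on members with few counts in some samples. Of the 49 members 6 were called in the interaction (12.2%, all genes 8.18%). In 5 of them the effect was lower in the caput, and these did not share the fall of the others in the IS. *Spata18* rose in the IS from 4.12 to 7.62 CPM and fell in the caput from 9.08 to 1.73 CPM. *Meig1* stood at 1.99 and 2.32 CPM in the IS and fell in the caput from 4.17 to 0.361 CPM, and *Tekt4* at 1.59 and 3.29 CPM and from 1.17 to 0.109 CPM. The lower summed sperm level in the ArKI caput moved with the caput falls of the axonemal genes, and its part in them was not tested.

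**Figure D3:**
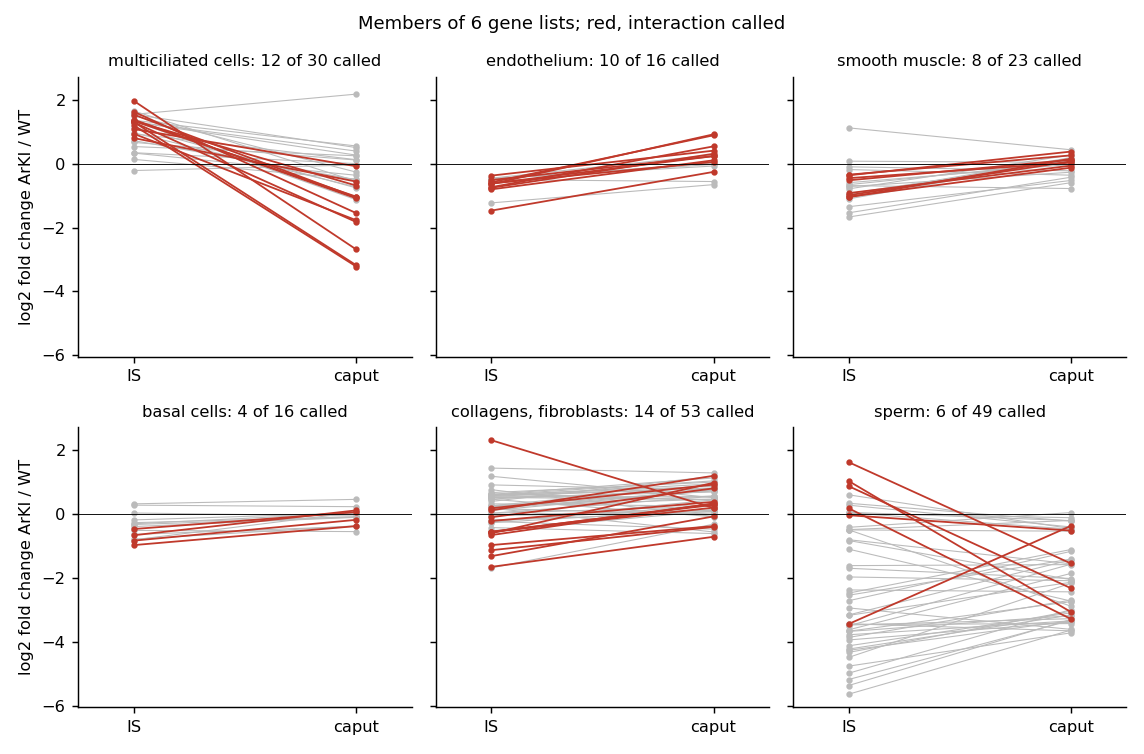
Log2 fold change of ArKI over WT in the IS and in the caput for every tested member of 6 gene lists, each gene a line, in red where the interaction was called. Called multiciliated genes slope down from the IS to the caput, called endothelial, smooth muscle and basal cell genes slope up, and most sperm genes lie below 0 in both segments.

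Endothelial genes moved in the reverse order to the multiciliated genes. Vessels of the epididymis, and those of the IS above all, form a dense network with fenestrated capillaries. Of 16 endothelial genes 10 were called (62.5%, where 3.95% of all genes were called in this direction), and in each the ArKI effect was higher in the caput. In the IS 14 fell and 0 rose, and in the caput 3 rose and 2 fell (all genes, IS 9.44% up and 8.8% down, caput 9.23% up and 10% down). Their sum was 327 to 399 CPM in the WT IS and 218 to 254 CPM in the ArKI IS, without overlap, and 185 to 195 CPM in the WT caput and 174 to 241 CPM in the ArKI caput, where the genotypes overlapped.

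*Kdr*, the main receptor of vascular endothelial growth factor, was among the 3 members with opposite effects. It gave 34.6, 41.2, 43.7, 34.4 and 40.1 CPM in the WT IS and 23.8, 21.9, 34.3, 24.2 and 25.5 CPM in the ArKI IS. In the caput it gave 10.4, 7.42, 8.42, 6.95 and 9.01 CPM in WT and 15.7, 23.3, 13.3, 14.4 and 15.1 CPM in ArKI. The ArKI samples were the lower ones in the IS and the higher ones in the caput, with no overlap, and the highest caput value was that of ArKI replicate 2. The interaction was 1.47 ± 0.19 (edgeR adjusted p = 1.1e-05), and without that sample it was 1.36. *Plvap*, which forms the diaphragms of fenestrated capillaries, had log2 folds of -0.64 ± 0.13 and 0.92 ± 0.17, an interaction of 1.56, and of 1.41 without ArKI caput replicate 2.

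*Flt1*, another receptor of the same growth factor, fell in the IS alone, from 30.4 ± 2.45 to 10.9 ± 2.05 CPM. Its caput levels of 9.34 ± 0.274 and 7.93 ± 1.07 CPM did not pass the test (edgeR adjusted p = 0.11), and the interaction was 1.21 ± 0.16. *Eng*, an accessory TGF-beta receptor of vessels, fell from 42.3 to 25 CPM in the IS and measured 16 and 20.6 CPM in the caput. Without ArKI caput replicate 2, which had the highest endothelial sum of the caput, 10 endothelial genes were called as well.

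Smooth muscle genes followed the same order. Smooth muscle surrounds the duct and moves the sperm along. Of 23 tested members 8 were called (34.8%, all genes 3.95%), all with a higher effect in the caput, and 15 fell and 1 rose in the IS (all genes, 8.8% and 9.44%), against 2 that rose and 1 that fell in the caput, where the shares were below those of all genes (9.23% and 10%). The count was 13 without ArKI caput replicate 5 and between 6 and 11 without any other single sample. *Mylk*, the kinase that starts smooth muscle contraction, gave 423, 442, 443, 427 and 470 CPM in the WT IS and 324, 312, 358, 377 and 345 CPM in the ArKI IS. Its caput values were 215, 200, 208, 214 and 176 CPM in WT and 292, 294, 226, 250 and 259 CPM in ArKI. The genotypes were apart in both segments with a modest size, at log2 folds of -0.36 ± 0.07 and 0.38 ± 0.07 (interaction 0.74 ± 0.09, edgeR adjusted p = 4.4e-06). *Flna*, which cross-links actin, had log2 folds of -0.34 and 0.26. *Tpm2*, a tropomyosin, fell from 54.3 to 26.1 CPM and *Lmod1*, a leiomodin, from 11.2 to 5.63 CPM in the IS, with caput folds of 0.16 and 0.08 that were not called. The summed list was 4950 to 5300 CPM in the WT IS and 3940 to 4600 CPM in the ArKI IS, and in the caput the highest sum, 4200 CPM, was that of ArKI replicate 2.

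Basal cells sit under the principal cells and can regenerate them. Of 16 tested members of their list 4 were called (25.0%, where 3.95% of all genes were called in this direction), each with a higher effect in the caput. In the IS 1 rose and 9 fell, and in the caput 1 rose and 4 fell (all genes, IS 9.44% up and 8.8% down, caput 9.23% up and 10% down). The sums were 1050 to 1130 CPM in the WT IS and 790 to 839 CPM in the ArKI IS, and 789 to 836 and 737 to 824 CPM in the caput. *Krt5*, a keratin of basal cells, fell from 75.8 ± 5.4 to 47.8 ± 8.58 CPM in the IS and measured 106 ± 8.35 and 115 ± 4.76 CPM in the caput (interaction 0.78 ± 0.12, edgeR adjusted p = 9e-05). Of the others, 2 encode parts of hemidesmosomes. *Itgb4*, an integrin chain, fell in the IS with a log2 fold of -0.47, and *Col17a1* fell by 0.97 in the IS and by 0.38 in the caput. *Trp63*, the defining transcription factor of basal cells, had log2 folds of -0.18 and 0.04 and was not called in the interaction (edgeR adjusted p = 0.087), nor was *Krt14* (0.29, edgeR adjusted p = 0.52). These values of *Trp63* and *Krt14* were looked up after the list's result was seen. Whether fewer basal, muscle or vessel cells in the ArKI IS samples had a part in the falls was not tested.

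**Figure D4:**
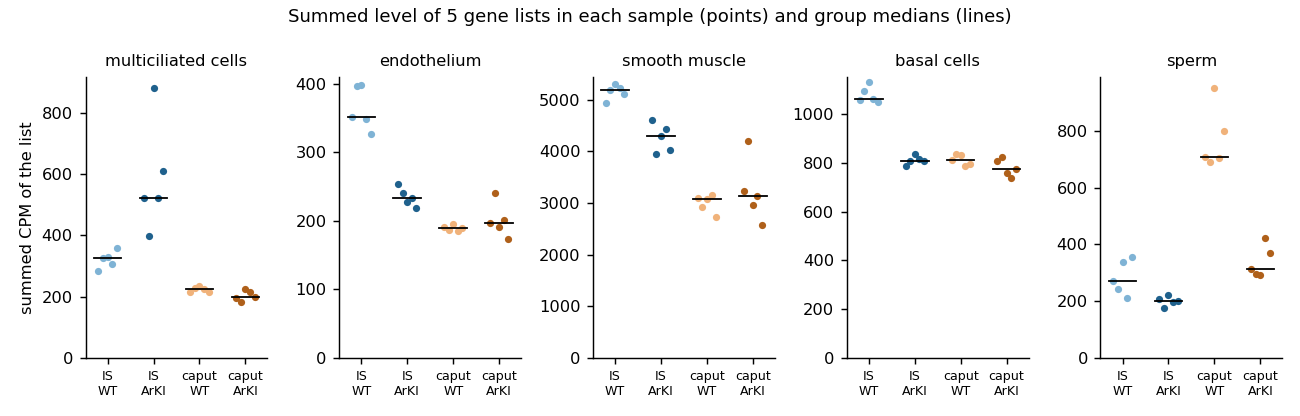
Summed scaled CPM of 5 gene lists in each sample (points) with the group median (line), on axes that start at 0. In the IS the ArKI samples lie above WT for multiciliated cells and below WT for endothelium, smooth muscle and basal cells, whereas in the caput the genotypes overlap in these 4 lists and are apart for sperm.

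Genes of the extracellular matrix were mixed. Of 53 tested genes of collagens and fibroblasts 14 were called (26.4%, all genes 8.18%), 13 of them with a higher effect in the caput. In the caput 18 rose and 3 fell (all genes, 9.23% and 10%), and in the IS 5 rose, a share like that of all genes (9.44%), and 9 fell (all genes, 8.8%). The network-forming collagens of basement membranes did not move alike. *Col4a3* rose in the caput from 31.3 to 59.9 CPM and stood at 37.2 and 42.1 CPM in the IS, whereas *Col4a6* fell in both segments, by 1.65 in the IS and by 0.71 in the caput on the log2 scale. *Col7a1*, which anchors epithelium to stroma, fell in the IS alone, from 101 to 69 CPM. The exception in direction was *Col11a1*, a fibrillar collagen, which rose in the IS alone from 8.09 ± 0.713 to 40.6 ± 5.17 CPM, with 7.47 ± 1.32 and 9.09 ± 3.37 CPM in the caput (interaction -2.13 ± 0.24, edgeR adjusted p = 1.3e-06). The sum of the list reached 6760 CPM in ArKI caput replicate 2, where the WT caput gave 2820 to 3150 CPM, and 15 members were called with a higher effect in the caput without it.

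Some genes of the Wnt and BMP families were called, most of them with a higher effect in the caput. Wnt ligands act on neighbouring cells through Frizzled receptors and in part through beta-catenin. Of 43 Wnt pathway genes 8 were called (18.6%, all genes 8.18%), 7 with a higher and 1 with a lower effect in the caput. *Wnt5a*, a ligand that acts mostly without beta-catenin, gave 40.7, 38.9, 52.8, 49.5 and 45.8 CPM in the WT IS and 17.6, 17.7, 17.7, 15.5 and 15.7 CPM in the ArKI IS. In the caput it gave 21.6, 16.6, 15.4, 20.5 and 16.4 CPM in WT and 26.4, 18.9, 18.8, 22.9 and 21.7 CPM in ArKI. The IS values of ArKI thus fell to the WT caput level, while the caput groups overlapped. The log2 folds were -1.43 ± 0.11 and 0.27 ± 0.11, and the interaction was 1.70 ± 0.15 (edgeR adjusted p = 1.8e-08).

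*Rspo3*, which amplifies Wnt signals, and *Wnt6* rose in the caput alone, from 11.5 to 17.7 CPM and from 6.75 to 10.5 CPM, with IS log2 folds of -0.60 and -0.58 that did not pass the test (edgeR adjusted p = 0.013 and 0.023). *Ctnnb1*, which encodes beta-catenin, rose in the caput by 0.30 on the log2 scale. Its IS log2 fold of -0.12 did not pass the test (edgeR adjusted p = 0.037). Of 35 BMP and GDF genes 5 were called (14.3%, where 3.95% of all genes were called in this direction), all with a higher effect in the caput, *Bmp8a* among them with opposite effects. *Bmp7*, *Nbl1* and *Smad5* had small interactions of 0.58, 0.46 and 0.30, and each lost its call in 14 or more of the 20 fits without a single sample (largest edgeR adjusted p = 0.0294). The family had 2 calls with library size alone and 1 by limma voom.

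Large interactions were also found for genes that ArKI raised in both segments. *Stc2*, a secreted stanniocalcin, rose in the IS from 3.38, 3.2, 4.22, 2.4 and 5.01 CPM in WT to 101, 94.6, 111, 107 and 89.9 CPM in ArKI. In the caput it rose from 28.7, 24.9, 20.3, 14.5 and 25.4 CPM to 38.1, 48.9, 37.6, 45.4 and 41.2 CPM. Both rises were without overlap, but the IS rise was far larger, with log2 folds of 4.76 ± 0.17 and 0.87 ± 0.13 and an interaction of -3.89 ± 0.23 (edgeR adjusted p = 6e-10). As a result *Stc2* was higher in the caput than in the IS in WT and lower in ArKI. *Ripk3*, the kinase that starts necroptosis, rose from 0.918 ± 0.468 to 18.7 ± 2.32 CPM in the IS and from 6.09 ± 2.36 to 24.7 ± 5.1 CPM in the caput (interaction -2.35 ± 0.38). *Dpp4*, a cell-surface peptidase, rose from 42.3 ± 12.1 to 182 ± 25.2 CPM and from 282 ± 14.7 to 456 ± 32.6 CPM (interaction -1.41 ± 0.19). In all 3 the WT level was lower in the IS than in the caput.

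The reverse was seen for *Npy*, which encodes neuropeptide Y. It gave 21.7, 21, 17.4, 19.4 and 18.5 CPM in the WT caput and 747, 646, 763, 640 and 696 CPM in the ArKI caput. In the IS it gave 0.965, 0.457, 0.372, 0.707 and 0.731 CPM in WT and 0.66, 3.23, 1.14, 1.19 and 2.48 CPM in ArKI, with groups that overlapped. The log2 folds were 1.44 ± 0.38 in the IS and 5.15 ± 0.11 in the caput, and the interaction was 3.72 ± 0.51 (edgeR adjusted p = 4.1e-05). *Ephb1*, a receptor of ephrin-B ligands, rose from 0.572 ± 0.26 to 21.9 ± 3.65 CPM in the caput and from 1.39 ± 0.452 to 2.91 ± 0.505 CPM in the IS (interaction 4.22 ± 0.36). *Pappa2*, a protease that frees insulin-like growth factors, had log2 folds of 4.54 in the caput and 2.83 in the IS (interaction 1.72 ± 0.36), which limma voom did not call (adjusted p = 0.0232). *Serpine2*, an inhibitor of serine proteases, had log2 folds of 2.58 and 1.13 (interaction 1.45 ± 0.18).

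Genes changed in the IS alone included large falls. *Cecr2*, a chromatin factor with a bromodomain, gave 26.4, 27.3, 29.4, 28.4 and 26.5 CPM in the WT IS and 1.58, 2.53, 2.29, 2.22 and 2.01 CPM in the ArKI IS. Its caput values were 2.57, 1.53, 3.74, 2.44 and 2.93 CPM in WT and 1.81, 2.77, 1.77, 2.31 and 2.39 CPM in ArKI. The IS of ArKI thus came down to the level of the caput, where the genotypes overlapped. The interaction was 3.42 ± 0.26 (edgeR adjusted p = 7.5e-10). *Fabp5*, a fatty acid carrier, fell in the IS from 7.48 ± 0.635 to 1.42 ± 0.279 CPM, with 0.838 ± 0.645 and 0.779 ± 0.236 CPM in the caput. *B3galt1*, a galactosyltransferase, and *Emilin2*, a matrix glycoprotein, had IS log2 folds of -1.87 and -1.38. *Acta1*, the actin of skeletal muscle, went from 3.31 ± 1.93 to 0.487 ± 0.276 CPM in the IS.

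Among rises in the IS alone the naming rule chose, beside *Tekt1* and *Lrrc23*, the axonemal genes *Dnajb13* and *Ttc29* and the gene *1700001C02Rik* (now *Fam166c*), with interactions of -3.41, -3.20 and -3.30. Of these, limma voom did not call *Tekt1*, *Lrrc23* and *1700001C02Rik*. In the caput *Dnajb13* had 4 to 7 counts per WT sample and 0 to 4 per ArKI sample. *Ttc29* had 3 to 8 and 0 to 4 there, and *1700001C02Rik* 1 to 11 and 0 to 5. The sizes of these interactions thus rest in part on few caput counts. Among potassium channels, *Kcnc4*, a voltage-gated pore subunit, rose from 3.99 ± 0.587 to 25.5 ± 3.62 CPM in the IS, with 58 ± 11.4 and 52.8 ± 3.83 CPM in the caput (interaction -2.82 ± 0.21, edgeR adjusted p = 8.8e-09). *Kcnt1*, a sodium-activated channel, rose from 8.88 to 18.7 CPM in the IS, with 44.7 and 41.1 CPM in the caput. Of 50 tested potassium channel genes 11 were called (22.0%, all genes 8.18%), 4 with a higher and 7 with a lower effect in the caput, so the family had no common direction.

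Genes that rose in the caput alone included *Faim3*, now named *Fcmr*, a receptor for immunoglobulin M. It rose from 0.398 ± 0.175 to 7.06 ± 1.77 CPM in the caput and stood at 9.85 ± 2.08 and 11.1 ± 1.19 CPM in the IS (interaction 3.83 ± 0.33, edgeR adjusted p = 1.3e-08). *Ripply3*, a transcriptional repressor, *Naip1*, an inflammasome sensor with close paralogs, and *Fam5b* (now *Brinp2*) rose by 2.79, 2.01 and 2.05 on the log2 scale from mean WT levels of 0.493, 1.08 and 0.632 CPM, which rest on few counts. *Ccdc147* (now *Cfap58*), a cilia and flagella protein, rose in the caput from 3.14 to 21.5 CPM and stood at 11 and 10.5 CPM in the IS.

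*Sp6*, a zinc finger transcription factor known from tooth and skin, had the largest fall among the genes that the naming rule chose from those changed in the caput alone. Its caput samples read 14.7, 9.49, 12.3, 10.5 and 9.25 CPM in WT and 0.482, 0, 0.443, 0.683 and 0.412 CPM in ArKI. In the IS they read 3.26, 1.03, 1.86, 1.13 and 1.57 CPM in WT and 1.58, 1.69, 1.71, 1.37 and 1.77 CPM in ArKI. The caput groups were far apart and the IS groups overlapped. The interaction was -4.46 ± 0.44 (edgeR adjusted p = 1.2e-07). *Zbbx*, *1110017D15Rik* and *2310007B03Rik* (now *Mab21l4*), next to *Tekt4*, fell in the caput by 2.90, 2.90 and 2.64 and had IS folds of 0.97, 0.92 and 1.08 that were not called.

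Of 35 tested epithelial transcription factors, *Sp6* and *Tead2* included, 7 were called (all genes 8.18%), 4 with a higher and 3 with a lower effect in the caput. *Nkx6-1*, a homeobox factor, rose in both segments and is named here after its values were seen. It went from 1.18 ± 0.51 to 21.1 ± 3.65 CPM in the IS. In the caput it was counted 0 to 3 times per WT sample and 73 to 236 times per ArKI sample, at least 50.3-fold higher (interaction 2.53 ± 0.55, edgeR adjusted p = 0.0021, which rests on these low WT counts). *Pou3f3*, a POU factor of the duct, rose by 0.32 in the caput with 0.04 in the IS, and *Nfia*, a nuclear factor I protein, rose by 0.52 in the IS with -0.01 in the caput.

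Several families of secreted proteins that act on sperm were examined. Of 14 tested members of the list of WAP domain proteins, which inhibit proteases and microbes, 5 were called (35.7%, where 8.18% of all genes were called in either direction). *Expi* (now *Wfdc18*), described below, was called too but is not on this list. *Wfdc16* rose in the caput from 21.7 ± 4.11 to 86.2 ± 34.5 CPM and stood at 18.6 ± 2.79 and 20.8 ± 2.35 CPM in the IS, and its highest caput value, 147 CPM, was that of ArKI replicate 2, without which the interaction was 1.54 in place of 1.78. *Wfdc3* fell in the caput from 13.9 ± 2.58 to 1.95 ± 0.579 CPM, with 2.06 ± 1.1 and 1.32 ± 0.41 CPM in the IS. *Wfdc8* and *Wfdc6b* fell in both segments and more in the IS, with log2 folds of -1.12 and -0.33 and of -2.10 and -0.76.

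Of 31 tested beta-defensins 3 were called (9.68%, all genes 8.18%), and all had small interactions. An example is *Defb21* at 0.58, which fell in the IS from 60.1 to 41.1 CPM and stood at 389 and 398 CPM in the caput. Another of the 3, *Defb1*, lost its call in 13 of 20 fits without a single sample (largest edgeR adjusted p = 0.0179). Of 11 tested lipocalins, carriers of small lipids, 1 was called (9.09%, near the share of all genes). This was *Lcn6*, with a rise in the IS from 405 to 983 CPM and 605 and 634 CPM in the caput. That call was lost in 14 of 20 fits without a single sample (largest edgeR adjusted p = 0.0176). For the *Spink* family of protease inhibitors 0 of 7 tested genes were called by edgeR and by limma voom, 1 by DESeq2, and 1 had an unadjusted p below 0.05 in edgeR. *Spink12* came nearest, with log2 folds of 0.91 and -0.58 and an interaction of -1.49 ± 0.41 (edgeR adjusted p = 0.02). *Spink2* fell in both segments, by 2.42 and by 1.69, and *Spink5* by 1.30 and by 1.49.

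Transport and defence genes added single cases. *Cftr*, the chloride and bicarbonate channel of epithelia, gave 10.7, 12.2, 16.3, 14.8 and 13.1 CPM in the WT caput and 3.98, 4.15, 8.6, 6.06 and 6.35 CPM in the ArKI caput. In the IS, where it was far more abundant, it gave 165, 186, 197, 206 and 197 CPM in WT and 176, 183, 205, 216 and 186 CPM in ArKI. The caput groups were apart and those of the IS were intermingled, and the interaction was -1.14 ± 0.19 (edgeR adjusted p = 0.00025). Among 30 genes of acid secretion and its cells 4 were called (13.3%), all with a lower effect in the caput (all genes 4.23%), and *Slc4a4*, a bicarbonate transporter, fell in the caput alone from 38.7 to 25.7 CPM. *Cxcl14*, a chemokine, rose in the caput alone from 25.2 ± 3.19 to 66.6 ± 13.2 CPM (interaction 1.76 ± 0.18). *H2-DMb1*, which helps load peptides on MHC class II, fell in the caput alone from 19.9 to 11.1 CPM, and was the 1 of 9 tested genes of that class called in the interaction (11.1%, all genes 8.18%), while 4 of the 9 rose in each segment (all genes, IS 9.44% and caput 9.23%).

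Retinoid genes were called in 5 of 27 (18.5%, all genes 8.18%) and went both ways. *Aldh1a7*, an aldehyde dehydrogenase, rose in the IS from 341 to 481 CPM and fell in the caput from 588 to 330 CPM (interaction -1.33 ± 0.18, edgeR adjusted p = 5.3e-05). *Stra6*, the receptor of retinol-binding protein, fell in both and more in the caput, with log2 folds of -0.84 and -2.24, while *Rdh12*, a retinol dehydrogenase, rose in both and more in the caput, with 0.36 and 1.37.

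A few called genes had at most 3 counts in every sample of a group, so that their folds are lower bounds computed against the mean level of 3 counts per sample. *Expi*, now named *Wfdc18*, was counted 0 to 2 times per sample in the WT caput and 11 to 42 times in the ArKI caput, which is at least 8.9-fold higher. Most of that came from ArKI replicate 2, the shallowest sample, with 42 counts, and without it the bound was 4.02-fold. *Il24*, an interleukin, was counted 0 to 1 and 8 to 31 times there and was at least 7.4-fold higher. *Crhbp*, a binding protein of corticotropin-releasing hormone, had 9 to 16 counts in the WT IS and 0 to 1 in the ArKI IS, at least 4.01-fold lower. *Rbp2*, a retinol carrier, rose in the IS from 4 to 11 counts to 13 to 40 counts and was at least 2.81-fold lower in the ArKI caput, and *Ccdc113*, a ciliary protein, was at least 2.09-fold lower there. *Rhox5*, an androgen-regulated homeobox gene, was counted 43 to 68 times per WT caput sample and 0 times in every ArKI caput sample, at least 16.8-fold lower. As it had at most 2 counts in any IS sample, the depth could not show a difference in the IS, and the interaction was not called (edgeR adjusted p = 0.034).

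Among 25 genes of androgen synthesis and response 2 were called (8%, all genes 8.18%), *Srd5a1* and *Tsc22d3*, and both lost the call in 8 or more of the 20 fits without a single sample (largest edgeR adjusted p = 0.0265).

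The same interactions can be read as a change in how the segments differ. On the log2(mean CPM + 0.5) scale, the difference between caput and IS was smaller in ArKI than in WT for 442 of the 1172 called genes (37.7%), larger for 347 (29.6%) and of opposite sign for 383 (32.7%). Among all genes tested the shares were 46.2%, 38.7% and 15%. *Cecr2* lost its difference, at -3.16 in WT and 0.045 in ArKI, and *Kcnc4* went from 3.70 to 1.03. *Npy* widened its difference from 4.13 to 8.28, and *Sp6* turned from 2.37 to -1.23. These shares describe the calls and were not tested, since the interaction that chose the genes is the change in that difference.

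**Figure D5:**
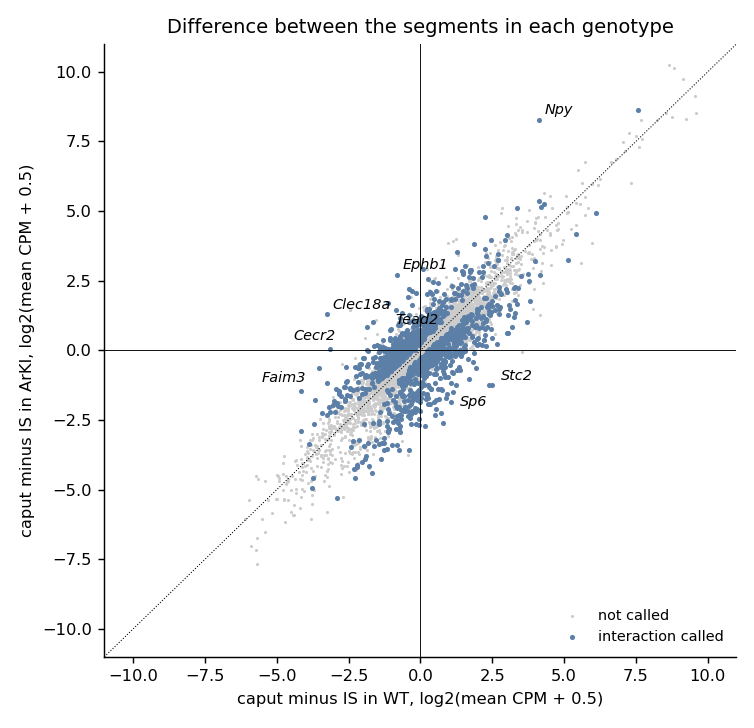
Difference between caput and IS, as log2(mean CPM + 0.5), in WT (x axis) and in ArKI (y axis) for each gene tested, with called genes in blue and the dotted line where the genotypes are equal. *Npy* lies far above the line at the upper right, *Cecr2* near 0 on the y axis, and *Stc2* and *Sp6* below the x axis although they are positive in WT.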

How the data were processed

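RNA of the IS and caput was sequenced as 50-base single reads in the same run. The authors aligned the reads with STAR to mm10, counted uniquely mapped reads per RefSeq gene with Subread 1.5.1, and deposited raw counts for 23337 genes without normalization. The labels and the methods name different TruSeq kits, and the strand setting of the counting is not given in the sources used here, so overlapping and antisense genes cannot be told apart. The 6 testis samples were not used here.

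The 4 groups were fitted together in R 4.3.3 with edgeR 4.0.16 (TMM, filterByExpr with a minimum count of 10 and total of 15, robust quasi-likelihood), and the interaction was the caput effect minus the IS effect. Genes were called at an adjusted p below 0.01. The SE was taken from the fold and its F statistic. CPM were computed from the counts with TMM factors. Alternatives were DESeq2 1.42.0, limma 3.58.1 (voom), RLE factors, library size alone, 2 other filters, no robust option, other thresholds, a replicate block, and leaving out samples. In simulated data of 14209 genes for the interaction, 60 of 97 genes changed 2-fold and 85 of 101 changed 4-fold in the caput alone were recovered, with 0 false calls. The simulated counts were independent draws with the segment means and dispersions of this fit. They hold no effect shared by samples of a mouse or by tissue make-up, so they cannot show false calls from such effects. Plots were made in Python 3.11.15 with matplotlib 3.10.9.

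The comparison, the gene lists and the naming rule were chosen with earlier results of these data known. The rule took, among called genes, up to 8 genes with opposite effects per direction ranked by the smaller fold, 5 per direction changed in each segment alone, 3 per segment changed alike but unequally, up to 4 per gene list by p, *Rhox5* and the *Spink* genes, and up to 4 per direction with at most 3 counts throughout a group. A listed symbol absent from the table was matched through RefSeq synonyms. Promoter windows were those of RefSeq in GRCm38.p6, the first listed for each gene, and 10187 of the tested genes had one. Some genes that the rule chose are not reported here.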

Additional observations from a re-analysis of the deposited data

Results flagged for a closer look

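The ArKI effect differed between the segments by the interaction test in 1172 genes and had opposite signs, each called, in 111 genes. Among 37 genes described here, a sample stood apart from the other 4 of its group by Dixon's criterion in 11 of 148 groups, where chance alone gives about 7.4.

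In ArKI caput replicate 2, the shallowest sample, *Kdr* was 23.3 CPM where the others gave 13.3 to 15.7, *Wfdc16* was 147 CPM where the others gave 62.4 to 80.1, *Acta1* was 17.7 CPM where the others gave 3.28 to 6.06, and *Rsph1* was 6.68 CPM where the others gave 9.65 to 10.5. In ArKI IS replicate 3, *Ankrd45* was 7 CPM against 2.67 to 3.58 and *Spag6* was 20 CPM against 11 to 13.2. *Ripk3* was 1.74 CPM in WT IS replicate 3 against 0.572 to 0.845, and *Acta1* was 6.7 CPM there against 1.88 to 2.9. *Col11a1* was 49.5 CPM in ArKI IS replicate 4 against 35.8 to 39.3. *Cxcl14* was 24 CPM in WT IS replicate 2 against 18.3 to 19.9, and 19.6 CPM in WT caput replicate 4 against 25.8 to 27.4. Each of these 9 genes kept its interaction call without any single sample.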

How the results depend on the processing

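The count of 1172 interaction genes was 1169 with RLE factors, 1127 with library size alone, 1120 without a filter, 971 with at least 10 counts in every sample, 1429 by DESeq2, 1103 by limma voom and 1158 without the robust option. Library size alone turned the split in the segments from 1353 up and 1261 down to 1516 and 1043 in the IS and from 1322 and 1435 to 1581 and 1175 in the caput, with medians over all genes of 0.030 and 0.038 on the log2 scale, so that the shares of all genes given for each direction depend on the scaling. With an adjusted p below 0.05 the interaction count was 2170 (1057 higher in the caput, 1113 lower), the IS effect 4137 (2124 up, 2013 down), the caput effect 4155 (2040 up) and opposite effects 289 (159 up in the IS, 130 up in the caput). With a fold above 2 as well, these were 444 (180 and 264), 699 (443 and 256), 762 (380 and 382) and 20 (17 and 3). With at least 10 counts in every sample, for which 11825 genes were tested, 38 opposed genes rose in the IS.

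Without each single sample or each replicate number in turn, the interaction count ranged from 709 to 1177 (337 to 570 higher, 339 to 646 lower), opposite effects from 53 to 125 (22 to 73 up in the IS, 25 to 59 up in the caput), the IS effect from 1881 to 2846 (964 to 1516 up, 882 to 1330 down) and the caput effect from 2011 to 2889 (944 to 1381 up, 1058 to 1508 down). The lowest values leave out 4 samples, 1 of each group. Of single samples, WT caput replicate 4 lowered the opposed genes up in the caput from 53 to 35. Of 142 named genes with a call, 120 kept it without any single sample and 22 lost it at least once. None of the 142 changed direction under any setting.

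The labels do not say that equal replicate numbers mark the same mouse. In these data 4 of 10 IS and caput pairs had a correlation above 0.1 (range -0.098 to 0.20), and 5 of 10 samples correlated best with their own number. Each IS sample was compared with the 5 caput samples of its genotype, so equal odds would give fewer than 5 such best matches. The numbers were not used as pairs in the main fit, and whether they pair the samples is not settled. With a replicate block of genotype by number, 1142 genes were called, 990 of them shared. This block leaves no opposite effects to estimate because it absorbs genotype. With the number over all groups 1194 were called, of which 1093 were shared. Of the genes described above, *Lcn6*, *Defb1* and *Tsc22d3* lost their call with both blocks. *Srd5a1*, *Nbl1* and *Smad5* lost it with genotype by number. Among the named genes, for which alone this was checked, values changed sign only in *Spink5*, *Spink8* and *Spink11*, which were not called. *Spink11* went from 0.07 to -0.50 by limma voom and to -0.27 and -0.062 with the replicate blocks. Over the fits without samples *Spink11* ranged from -0.48 to 0.68, *Spink8* from -0.32 to 0.028 and *Spink5* from -0.45 to 0.22. The bound of *Expi* fell from 8.9-fold to 4.02-fold without ArKI caput replicate 2, which was computed after seeing the data. At this depth, folds of genes below about 1 CPM in a group rest on few counts.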

Other observations

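Of 30 tested cell cycle genes, 8 rose and 0 fell in the IS (all genes, 9.44% and 8.8%) and 18 rose and 0 fell in the caput (all genes, 9.23% and 10%), with median log2 folds of 0.77 and 0.97. Their sum was 266 to 377 CPM in the WT IS, 320 to 565 CPM in the ArKI IS, 150 to 189 CPM in the WT caput and 236 to 407 CPM in the ArKI caput. In the interaction 0 were called by edgeR, DESeq2 and limma voom, and 3 had an unadjusted p below 0.05 in edgeR. Of 27 macrophage genes 2 were called (7.41%), a share no higher than that of all genes (8.18%). *Csf1r*, the receptor of the macrophage growth factor, fell in the IS from 64.5 to 44.2 CPM and measured 30.3 and 35.1 CPM in the caput, and *Cx3cr1*, a chemokine receptor, fell from 32.5 to 20.4 CPM and measured 13.6 and 14.6 CPM.

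Detoxifying enzymes gave calls in both directions. Of 21 glutathione transferases 4 were called (19.0%, all genes 8.18%). *Gstm5* rose in the IS from 69.6 to 153 CPM and measured 163 and 170 CPM in the caput, whereas *Gstt3* rose in the caput from 170 to 224 CPM and measured 219 and 210 CPM in the IS. *Gpx8*, a peroxidase of the endoplasmic reticulum, rose in the IS from 65.8 to 80 CPM and fell in the caput from 128 to 106 CPM (interaction -0.56 ± 0.09, edgeR adjusted p = 8e-05). Members of the glutathione transferase family have close paralogs, so that uniquely mapped reads may undercount them. *Met*, the receptor of hepatocyte growth factor, rose in the caput alone from 12.6 to 19 CPM, and *Vldlr*, a lipoprotein receptor, from 16.3 to 31 CPM, with IS log2 folds of -0.15 and -0.05. *Slc7a1*, a carrier of basic amino acids, fell in the IS from 334 to 272 CPM and rose in the caput from 144 to 176 CPM (interaction 0.59 ± 0.09, edgeR adjusted p = 4e-05).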
